A study of Mus musculus with 12 samples.

Results

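The genes described here are 10 genes of extracellular nucleotide signalling in mouse peritoneal exudate cells (PECs): the adenosine receptor genes *Adora2a* and *Adora2b*, the P2Y receptor genes *P2ry2*, *P2ry6*, *P2ry12* and *P2ry14*, the P2X channel genes *P2rx4* and *P2rx7*, and the ectonucleotidase genes *Entpd1* and *Nt5e*. They were chosen by symbol from a list of purinergic receptor, adenosine receptor and ectonucleotidase genes, and all 10 were present among the 12850 genes listed in the data. The RNA came from thioglycollate-elicited PECs of C57BL/6 mice that were either wild type (WT) or carried Zc3h12a S513A/S513A, a CRISPR/Cas9 knock-in that replaces a serine of the endoribonuclease Regnase-1 (S513A below). PECs were collected from the peritoneal cavity after injection of thioglycollate medium, cultured, and exposed to LPS at 100 ng/ml for 0, 4 or 8 hr, which gave 6 groups of 2 poly(A) RNA-seq libraries, 12 in all. The PECs of all 6 groups were thioglycollate-elicited, so that no group holds unelicited cells. Reads were counted per gene, and these counts do not show the base at the edited codon. The labels do not say whether the 2 libraries of a group came from separate mice, nor whether libraries that carry the same number at different times share a preparation, so that p-values measure the spread between these libraries, which may be partly technical.

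Cells release ATP and UTP when they are stressed or damaged, and neighbouring cells sense these nucleotides through P2X channels, which open a cation pore, and through P2Y receptors, which couple to G proteins. At the cell surface, the enzyme CD39 (*Entpd1*) removes phosphates from ATP and ADP to give AMP, and CD73 (*Nt5e*) turns AMP into adenosine. Adenosine then acts on its own receptors, of which those encoded by *Adora2a* and *Adora2b* raise cAMP and are known to dampen the production of inflammatory cytokines by macrophages.

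The libraries held between 9525979 and 12439960 reads on listed genes, with a median of 11137241. Levels are given as log2 CPM (read counts scaled for library size, on a log2 scale), on which the limit that a count of 0 allows, taken as 3 reads, lies between -2.04 and -1.30 depending on the library, for counting error only. All 8 macrophage markers were listed, with a summed level of 16205 to 26363 CPM, and markers of the other cell types were lower: 55.3 to 225.2 CPM for the 7 markers of resident peritoneal macrophages, 362.4 to 745.5 CPM for the 3 listed of 8 neutrophil markers, 15.3 to 18.5 CPM at 0 hr for the 2 listed of 5 eosinophil markers, and at most 10.3 CPM for the listed markers of B cells, T cells, mast cells, dendritic cells, platelets or mesothelial cells in any library. The replicates of a group differed with an SD over genes of 0.16 to 0.40 on the log2 scale, and the first component of these differences held 39.2% of their variance. Over genes, this component followed the S513A and WT difference at 0 hr (Pearson r = -0.57), 4 hr (r = -0.49) and 8 hr (r = 0.47). In the mean of the time points r was -0.32. For the difference between genotypes in the response to LPS, r was 0.10 at 4 hr and 0.64 at 8 hr. These correlations bear on the comparison of genotypes below. In bulk RNA, fewer cells of a type and less RNA per cell cannot be told apart.

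Promoter windows in GRCm38.p6 from RefSeq, 250 bases before to 50 bases after a start site, were at hand for 8 of the 10 genes, with 14 windows in all. Those of *Adora2b*, *P2ry12*, *P2ry14* and *Entpd1* are shown because *Adora2b* and *P2ry14* rose and *P2ry12* and *Entpd1* fell under LPS. The fall of *P2ry12* rests on few reads and was partly set by the filter described below. Capitals mark matches, on either strand, to motifs of factors known from macrophages: the kappaB motif, AP-1 (TGANTCA), CRE (TGACGTCA), ISRE, GAS (TTCNNNGAA) and PU.1 (GAGGAA). The windows lie at chr11:62248734-62249033 (plus strand), chr3:59262936-59263235 (minus strand), chr3:59153443-59153742 (minus strand) and chr19:40659520-40659819 (plus strand, the second start site of *Entpd1*).
Adora2b: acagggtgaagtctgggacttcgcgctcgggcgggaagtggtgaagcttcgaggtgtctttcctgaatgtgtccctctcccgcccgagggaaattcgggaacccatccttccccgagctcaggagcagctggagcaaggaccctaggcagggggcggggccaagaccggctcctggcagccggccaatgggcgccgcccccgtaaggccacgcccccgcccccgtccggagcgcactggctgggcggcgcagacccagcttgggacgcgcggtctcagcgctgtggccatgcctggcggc
P2ry12: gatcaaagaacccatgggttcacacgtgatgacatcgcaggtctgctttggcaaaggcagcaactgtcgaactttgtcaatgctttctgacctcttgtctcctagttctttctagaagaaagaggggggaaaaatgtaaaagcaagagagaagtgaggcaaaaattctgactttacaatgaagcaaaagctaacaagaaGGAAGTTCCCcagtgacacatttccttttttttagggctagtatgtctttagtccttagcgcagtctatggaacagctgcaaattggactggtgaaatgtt
P2ry14: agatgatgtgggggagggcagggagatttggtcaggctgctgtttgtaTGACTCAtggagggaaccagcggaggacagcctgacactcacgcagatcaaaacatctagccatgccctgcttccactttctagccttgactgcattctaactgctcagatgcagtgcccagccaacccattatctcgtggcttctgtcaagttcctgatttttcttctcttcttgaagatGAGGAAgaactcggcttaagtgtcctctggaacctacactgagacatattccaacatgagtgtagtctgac
Entpd1: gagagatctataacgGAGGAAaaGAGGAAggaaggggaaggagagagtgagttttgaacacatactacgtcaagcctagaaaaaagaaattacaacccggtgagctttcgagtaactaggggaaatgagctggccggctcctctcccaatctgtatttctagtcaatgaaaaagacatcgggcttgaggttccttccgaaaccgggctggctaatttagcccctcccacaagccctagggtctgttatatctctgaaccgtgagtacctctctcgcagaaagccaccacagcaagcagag
The *P2ry12* window held a kappaB match starting 51 bases before the start site. The window shown for *P2ry14* held an AP-1 match at -202 and a PU.1 match at -21. Of its 4 windows, 2 held AP-1 and all 4 held PU.1. However, 2 of these windows overlap, and their PU.1 matches, at -29 and -239, are the same site. In the *Entpd1* window shown, 2 PU.1 matches started at -235 and -227, and the other of its 2 windows held no match. The *Adora2b* window, whose gene rose with LPS, held none of the 6 motifs. Among the genes not shown, no window of *P2rx4*, *P2ry2* or *Nt5e* held a match. Of the 2 windows of *P2rx7*, 1 held AP-1 and 2 held PU.1. Over 32851 promoter windows of the same length, 8.46% held the kappaB motif, 7.81% AP-1, 1.79% CRE, 3.44% ISRE, 8.30% GAS and 28.3% PU.1. A match is a run of letters and does not show that a factor binds there.

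The first comparison asked how these genes responded to LPS, with the libraries of both genotypes averaged (4 libraries per time point). After 4 hr of LPS, 9 of the 10 genes passed the test: *Adora2a*, *Adora2b*, *P2ry2* and *P2ry14* were higher, and *P2ry6*, *P2ry12*, *P2rx4*, *Entpd1* and *Nt5e* were lower. The test was limma with Benjamini-Hochberg adjustment over 11885 genes, two-sided, with a threshold of 0.05, and among all those genes 55.8% passed at 4 hr, 29.1% higher and 26.7% lower. At 8 hr against 0 hr, 8 of 10 passed, 4 higher and 4 lower, against 46.1% of all genes (24.5% higher, 21.6% lower). Between 4 and 8 hr, 4 of 10 passed, with *P2ry6*, *P2rx4* and *Entpd1* higher and *Adora2a* lower at 8 hr, against 25.6% of all genes (12.8% higher and 12.8% lower). The median absolute log2 fold change of the 10 genes was 1.69 at 4 hr, 1.20 at 8 hr and 0.28 between 4 and 8 hr, where the median over all genes tested was 0.42, 0.33 and 0.23. *P2ry12* and *Nt5e* entered the test only through their 0 hr libraries, in which each reached 1 CPM in 3 of 4 and in none at 4 or 8 hr, so that their lower values after LPS were partly set by the filter. The medians of the 10 genes include *P2ry12* and *Nt5e*, so that the filter bears on these medians as well. A filter at a mean of 5 CPM left both out. Then 7 of 8 genes passed at 4 hr (4 higher, 3 lower) and 6 of 8 at 8 hr (4 higher, 2 lower). Over all genes, 5461 and 4472 passed with that filter. The number of genes that it left to test is not given here, so that the counts of 8 have no share of all genes beside them. The 4 hr and 8 hr comparisons share their 0 hr libraries.

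**Figure D1:**
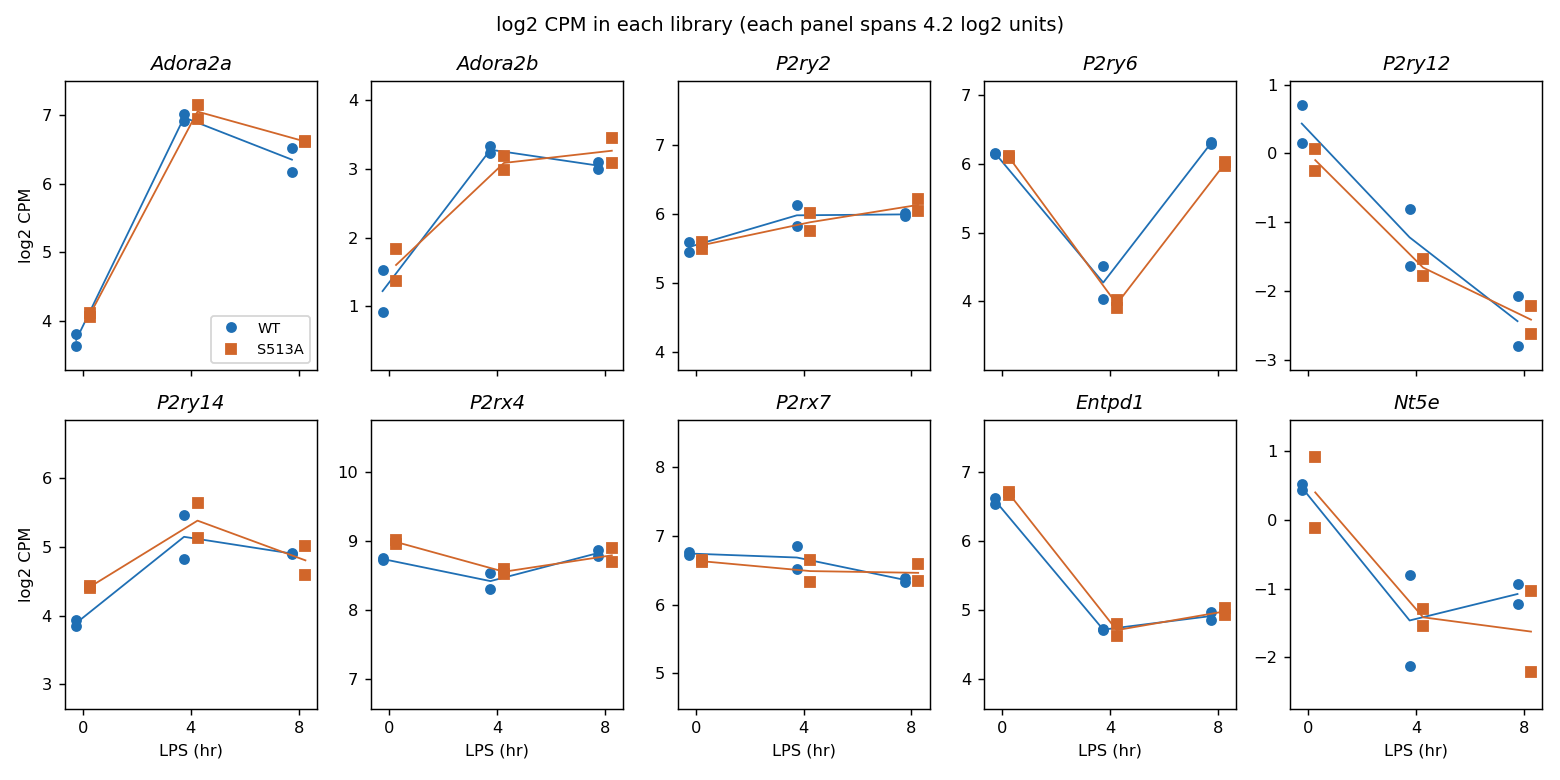
Level of each of the 10 genes (log2 CPM, vertical axis) in each of the 12 libraries against time in LPS (hr), with WT as blue circles, S513A as orange squares, and lines through the group means of 2 libraries. Each panel spans the same number of log2 units. *Adora2a* rises from 3.64 to 4.11 at 0 hr to at least 6.17 under LPS, *Entpd1* falls in all 8 treated libraries, and *P2ry6* is low at 4 hr only.

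*Adora2a* encodes an adenosine receptor that binds its ligand with high affinity and couples to Gs. In WT PECs its level was 3.82 and 3.64 log2 CPM without LPS, 6.91 and 7.02 after 4 hr, and 6.17 and 6.53 after 8 hr. In S513A PECs the corresponding values were 4.06 and 4.11, then 7.15 and 6.95, then 6.61 and 6.62. The 3 time points did not overlap: *Adora2a* was lowest in the 4 libraries without LPS and highest in the 4 libraries at 4 hr. The rise at 4 hr was 8.56-fold (95% CI 7.40 to 9.90), a log2 fold change of 3.10 ± 0.10 (SE, 4 libraries against 4) with an adjusted p of 8.8e-10 in limma. Among the 11885 genes tested, it was the rise of rank 265. From 4 to 8 hr the level changed by -0.53 on the log2 scale (SE 0.10, limma adjusted p = 0.0025), which left it 5.95-fold above the untreated level (95% CI 5.14 to 6.88).

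*Adora2b* encodes an adenosine receptor that needs higher adenosine concentrations and couples to Gs and Gq. WT libraries gave 1.53 and 0.91 log2 CPM without LPS, 3.23 and 3.33 after 4 hr, and 3.10 and 2.99 after 8 hr. S513A libraries gave 1.37 and 1.83, then 2.99 and 3.19, then 3.09 and 3.44. All 8 libraries with LPS were above the 4 libraries without it, and the 4 and 8 hr libraries overlapped. The rise was 3.41-fold at 4 hr (95% CI 2.63 to 4.43, limma adjusted p = 6.38e-06) and 3.35-fold at 8 hr (95% CI 2.58 to 4.35), with 136 reads over the 4 libraries at 0 hr and 373 at 4 hr. Per kb of exon, *Adora2a* stood 1.76 ± 0.24 log2 units (SD, n = 4 libraries) above *Adora2b* at 0 hr, 3.09 ± 0.23 at 4 hr and 2.59 ± 0.24 at 8 hr.

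*P2ry6* encodes the receptor for UDP, known for its part in microglial phagocytosis and chemokine release. Its levels were 6.16 and 6.15 log2 CPM without LPS, 4.51 and 4.04 after 4 hr, and 6.30 and 6.31 after 8 hr in WT. In S513A they were 6.09 and 6.11, then 4.03 and 3.90, then 5.98 and 6.02. The 4 hr libraries were lowest in both genotypes, with no overlap with the other time points, and the 8 hr libraries lay on both sides of those at 0 hr. At 4 hr *P2ry6* was 4.02-fold lower (95% CI 3.45 to 4.69, limma adjusted p = 3.48e-08), and from 4 to 8 hr it rose 4.09-fold (95% CI 3.51 to 4.77, limma adjusted p = 1.47e-06). This was the rise of rank 16 between 4 and 8 hr among the 11885 genes. The 8 hr level differed from that at 0 hr by a log2 fold change of 0.03 ± 0.10 (SE; 95% CI -0.20 to 0.25), and the sign of this small difference turned with the scaling (-0.12 with quantile normalization).

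The gene neighbouring *P2ry6* on chromosome 7, *P2ry2*, encodes a receptor for ATP and UTP that senses nucleotides from dying cells. WT levels were 5.45 and 5.60 log2 CPM without LPS, 5.83 and 6.14 after 4 hr, and 5.97 and 6.02 after 8 hr, and S513A levels were 5.50 and 5.60, then 6.02 and 5.75, then 6.23 and 6.04. All 8 treated libraries were above the untreated ones, by a small margin. *P2ry2* rose 1.32-fold at 4 hr (95% CI 1.13 to 1.53, limma adjusted p = 0.00527) and 1.44-fold at 8 hr (95% CI 1.24 to 1.68, limma adjusted p = 0.00115). Per kb, the *P2ry6* minus *P2ry2* difference was 1.04 ± 0.09 log2 units without LPS (SD, n = 4), -1.37 ± 0.35 after 4 hr and 0.53 ± 0.27 after 8 hr, so that the order of these neighbours was turned at 4 hr in all 4 libraries.

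*P2ry14* and *P2ry12* lie on chromosome 3 (starts 59113855 and 59216272 in GRCm38), both within *Med12l* on the opposite strand, with 0 and 9 exon bases shared; *Med12l* was not among the listed genes and the mapping did not use strand. *P2ry14* encodes the receptor for UDP-glucose. It was at 3.93 and 3.85 log2 CPM without LPS, 5.47 and 4.83 after 4 hr, and 4.90 and 4.91 after 8 hr in WT, and at 4.43 and 4.40, then 5.12 and 5.64, then 4.59 and 5.02 in S513A. Every treated library was above every untreated one. The rise was 2.16-fold at 4 hr (95% CI 1.69 to 2.76, limma adjusted p = 0.000144) and 1.62-fold at 8 hr (95% CI 1.27 to 2.07, limma adjusted p = 0.00426). In S513A alone the 8 hr log2 fold change was 0.39 (limma adjusted p = 0.196), and in WT alone it was 1.01 (limma adjusted p = 0.0056).

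*P2ry12* encodes the ADP receptor of platelets and microglia. It was near the detection limit, with 58 reads over the 4 libraries at 0 hr, 14 at 4 hr and 6 at 8 hr. The direction of its falls was partly set by the filter, which bears on the intervals and tests that follow. Its levels in WT were 0.71 and 0.16 log2 CPM, then -0.81 and -1.64, then -2.07 and -2.80, and in S513A -0.26 and 0.07, then -1.54 and -1.78, then -2.21 and -2.62. The log2 CPM of the time points did not overlap, but the reads did, with 2 to 6 a library at 4 hr and 1 to 2 at 8 hr. The change from 4 to 8 hr did not pass (limma adjusted p = 0.112). Set against library size, the reads were 3.35-fold lower at 4 hr (95% exact Clopper-Pearson interval 1.85 to 6.51) and 7.98-fold lower at 8 hr (3.45 to 22.6), intervals that cover counting error only. In limma the log2 fold changes were -1.61 ± 0.42 and -2.60 ± 0.42 (SE, adjusted p = 0.00692 and 0.000427), and with 1 CPM added before the log they were -0.63 and -0.85, so that the size of these falls depends on the value added to low counts. In S513A alone the 4 hr fall of *P2ry12* did not pass (log2 fold change -1.56, limma adjusted p = 0.0532). Of the 6 platelet and megakaryocyte markers only 2 were listed, with a summed level of 1.17 to 5.32 CPM that was highest at 8 hr, while the 2 listed eosinophil markers fell from 15.3 to 18.5 CPM at 0 hr to 8.02 to 10.0 CPM at 4 hr and 3.62 to 4.58 CPM at 8 hr. The part of eosinophils in the lower counts of *P2ry12*, or of *Nt5e* below, was not tested.

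*P2rx4* and *P2rx7*, neighbours on chromosome 5, encode ATP-gated channels: P2X4 opens at low ATP and sits largely in lysosomes, and P2X7 needs high ATP and is known for triggering inflammasome activation. *P2rx4* was the highest of the 10 genes at every time point per kb of exon, and it made up 44.3 to 58.9% of their summed CPM. Its level was 8.72 and 8.76 log2 CPM without LPS, 8.54 and 8.30 after 4 hr, and 8.78 and 8.87 after 8 hr in WT, and 8.95 and 9.02, then 8.52 and 8.59, then 8.70 and 8.89 in S513A. The 4 hr libraries were all below the others. *P2rx4* was 1.30-fold lower at 4 hr (95% CI 1.15 to 1.47, limma adjusted p = 0.00244) and rose 1.25-fold from 4 to 8 hr (95% CI 1.10 to 1.42, limma adjusted p = 0.0147), a call that was lost without WT 8 hr replicate 2 (adjusted p = 0.0620) or S513A 8 hr replicate 2 (adjusted p = 0.0527). Its 8 hr log2 fold change against 0 hr was -0.05 ± 0.08 (SE, 95% CI -0.23 to 0.13), but -0.37 with quantile normalization (limma adjusted p = 0.00166).

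*P2rx7* changed little. WT libraries gave 6.77 and 6.72 log2 CPM without LPS, 6.53 and 6.85 after 4 hr, and 6.39 and 6.34 after 8 hr, and S513A libraries 6.65 and 6.62, then 6.65 and 6.32, then 6.59 and 6.34. The 4 hr libraries lay on both sides of those at 0 hr, and those at 8 hr were all below them, with 6.59 against 6.62 at the closest. The 4 hr log2 fold change was -0.10 (95% CI -0.33 to 0.12, limma adjusted p = 0.431), and -0.35 with quantile normalization (limma adjusted p = 0.0119). At 8 hr it was -0.28 ± 0.10 (SE, limma adjusted p = 0.0461), which did not pass when any of 7 single libraries was left out. *P2rx7* contains *Mir8115*, with 119 shared exon bases.

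*Entpd1* (CD39) had 6.54 and 6.62 log2 CPM without LPS, 4.72 and 4.71 after 4 hr, and 4.85 and 4.97 after 8 hr in WT. The S513A values were 6.71 and 6.67, then 4.80 and 4.61, then 5.03 and 4.92. All 8 treated libraries, at 5.03 or less, lay below the 4 untreated ones, at 6.54 or more. *Entpd1* was 3.81-fold lower at 4 hr (95% CI 3.39 to 4.28, limma adjusted p = 5.39e-09) and 3.24-fold lower at 8 hr (95% CI 2.88 to 3.64, limma adjusted p = 2.01e-08). The small rise from 4 to 8 hr, a log2 fold change of 0.23 (SE 0.08, limma adjusted p = 0.0434), no longer passed when any of 11 single libraries was left out.

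*Nt5e* (CD73) was the lowest of the 10 genes per kb, with 69 reads over the 4 libraries at 0 hr, 14 at 4 hr and 15 at 8 hr. Its log2 CPM was 0.51 and 0.43, then -0.81 and -2.12, then -0.94 and -1.22 in WT, and -0.12 and 0.92, then -1.54 and -1.30, then -2.21 and -1.04 in S513A. Every treated library was below every untreated one, a direction partly set by the filter, which also bears on the intervals and tests that follow. Against library size the reads were 3.99-fold lower at 4 hr (95% exact Clopper-Pearson interval 2.22 to 7.68) and 3.80-fold lower at 8 hr (2.15 to 7.15). In limma the log2 fold changes were -1.88 ± 0.44 and -1.79 ± 0.44 (SE, adjusted p = 0.00396 and 0.00665), and with 1 CPM added before the log they were -0.78 and -0.75. In WT alone the 8 hr fall of *Nt5e* did not pass (log2 fold change -1.55, limma adjusted p = 0.0785). Per kb, *Entpd1* stood 6.83 ± 0.45, 6.77 ± 0.56 and 6.92 ± 0.65 log2 units above *Nt5e* at 0, 4 and 8 hr (SD, n = 4 each).

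**Figure D2:**
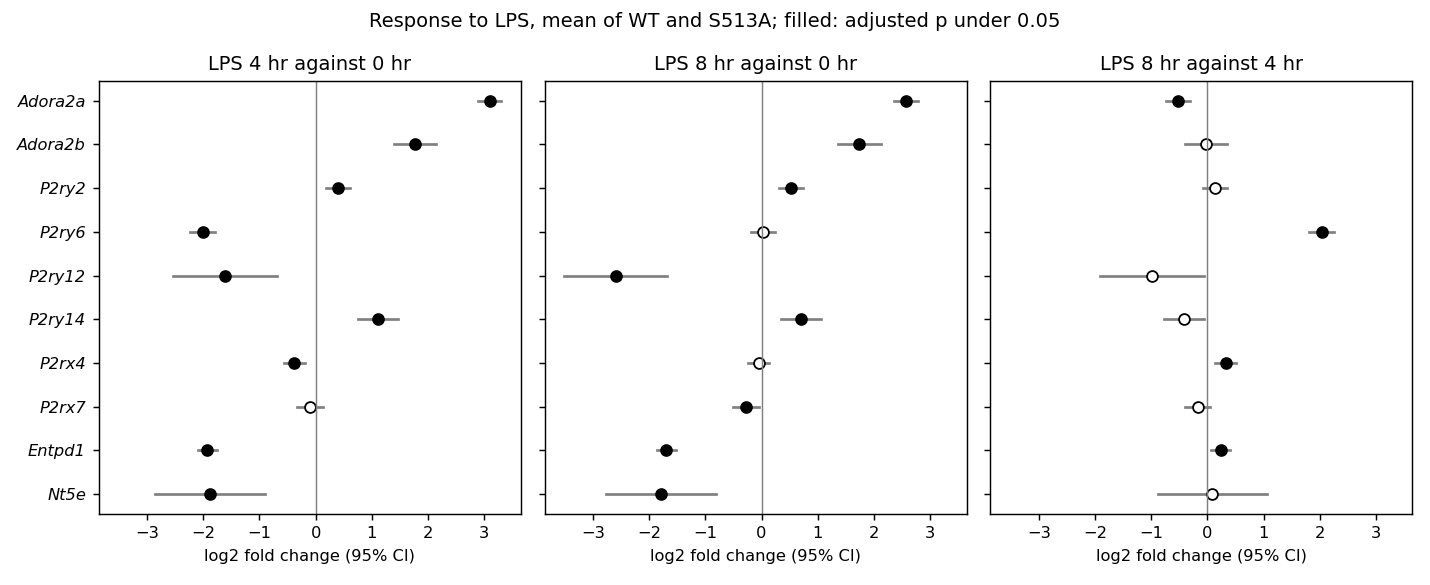
Log2 fold change of each gene (horizontal axis, points, with 95% confidence intervals as lines) for 4 against 0 hr, 8 against 0 hr and 8 against 4 hr of LPS, averaged over WT and S513A. Filled points have an adjusted p under 0.05 (9, 8 and 4 of 10 genes), and *P2ry6* is at -2.01 at 4 hr, 0.03 at 8 hr and 2.03 between them.

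The order of the genes was compared on the log2 CPM per kb scale, with exon lengths from the GENCODE annotation of GRCm38. Without LPS the order from high to low was *P2rx4*, *P2ry6*, *Entpd1*, *P2rx7*, *P2ry2*, *Adora2a*, *P2ry14*, *Adora2b*, *P2ry12* and *Nt5e*. *Entpd1* and *P2rx7* changed places between libraries (a difference of 0.05 ± 0.14, SD, n = 4), as did *P2ry14* and *Adora2b* (0.16 ± 0.31). *Adora2a* moved from place 6 at 0 hr to place 2 at 4 and 8 hr, 0.28 ± 0.18 below *P2rx4* at 4 hr and 1.13 ± 0.22 below it at 8 hr. *Entpd1* went from place 3 to places 7 and 6, and at 4 hr its order with *Adora2b* (a difference of 0.07 ± 0.20) and with *P2ry14* (0.43 ± 0.41) differed between libraries. The difference of *Adora2a* minus *Entpd1* went from -1.86 ± 0.19 at 0 hr to 3.16 ± 0.07 at 4 hr and 2.40 ± 0.16 at 8 hr, with the same sign in the 4 libraries of each time point. At 8 hr *P2ry6* was near *Adora2a* (*Adora2a* minus *P2ry6* 0.24 ± 0.36, with the order not the same in every library). The exon length of *P2ry14*, 11059 bases, is the longest of the 10, and its place depends on that annotated length.

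**Figure D3:**
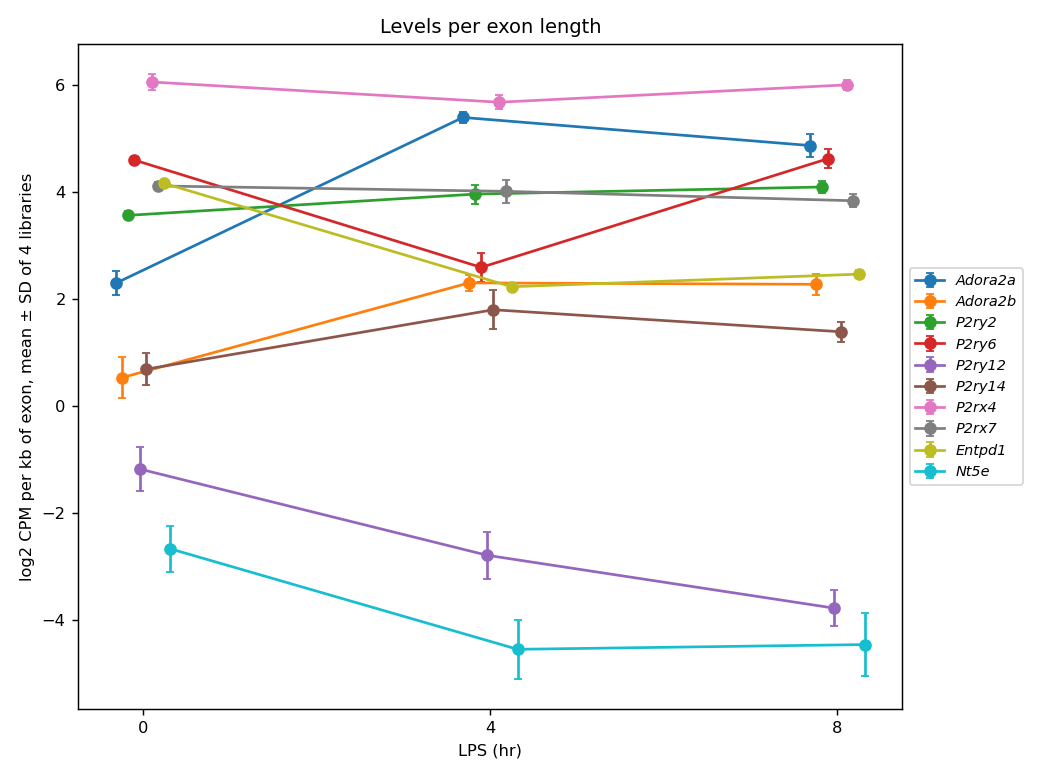
Mean level of each gene per length (log2 CPM per kb of exon, vertical axis) at 0, 4 and 8 hr of LPS, with the SD of 4 libraries (both genotypes) as error bars, points shifted sideways to separate them. *Adora2a* crosses from place 6 to place 2, *Entpd1* drops from 4.16 to 2.23, and *P2ry12* and *Nt5e* stay below 0.

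The second comparison asked whether the S513A mutation changed these genes or their response to LPS. None of the 10 genes passed the limma test between S513A and WT at 0, 4 or 8 hr, where 0.0337%, 0.0168% and 0.0337% of all genes did, or in the mean of the time points, where 0.0673% did. At an unadjusted p under 0.05 there were 2, 0, 0 and 2 of the 10 genes, where 7.98%, 7.01%, 12.5% and 6.71% of all genes tested had one, and the smallest adjusted p values of the 10 were 0.586, 0.622, 0.403 and 0.581. *Adora2a* was the gene with the lowest unadjusted p in the mean of the time points, at a log2 fold change of 0.24 ± 0.08 (SE, 6 libraries against 6, 95% CI 0.06 to 0.41, limma adjusted p = 0.581), with S513A means above WT at each time point. *P2ry6* differed by -0.22 ± 0.08 (SE, 95% CI -0.40 to -0.04, limma adjusted p = 0.672), and both S513A libraries were below both WT libraries at each time point; with 1 library left out this difference lay between -0.30 and -0.14, the latter without WT 4 hr replicate 1. *P2ry14* at 0 hr had 4.43 and 4.40 log2 CPM in S513A against 3.93 and 3.85 in WT, a log2 fold change of 0.52 (95% CI 0.03 to 1.02, limma adjusted p = 0.586). When only the 4 libraries at 0 hr entered the model, this difference passed (limma adjusted p = 0.0444), as did 693 of the 11885 genes. Over the 10 alternatives other than leaving out 1 library, the *P2ry14* difference at 0 hr lay between 0.24 and 0.52 on the log2 scale. Apart from *P2ry12* and *Nt5e*, whose intervals were wide, the 95% intervals of the differences at single time points reached from -0.72 (*Adora2b* at 4 hr) to 1.02 (*P2ry14* at 0 hr) on the log2 scale.

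**Figure D4:**
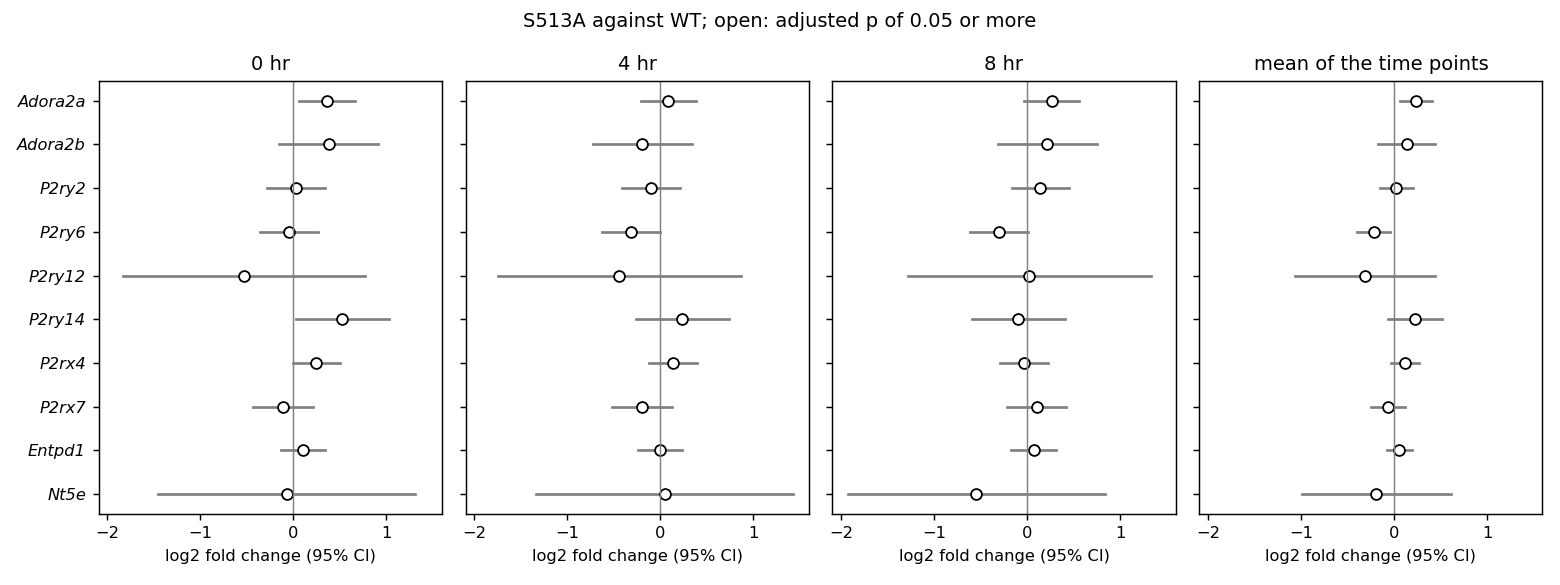
Log2 fold change of S513A against WT (horizontal axis, points, with 95% confidence intervals as lines) for each gene at 0, 4 and 8 hr of LPS and in their mean. All points are open, as none of the 10 genes had an adjusted p under 0.05, and the intervals of *P2ry12* and *Nt5e* are the widest.

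The response to LPS was then compared between genotypes. In the test of the difference in response, none of the 10 genes passed at 4 hr or 8 hr with limma, where 0% of all genes passed at either time. At an unadjusted p under 0.05 this was 144 and 2405 of the 11885 genes and none of the 10, and limma with voom weights on the recovered reads also gave 0 of the 10 in every comparison of genotypes. The largest difference among the 10 at 8 hr was that of *P2ry14*, -0.62 (95% CI -1.33 to 0.08, limma adjusted p = 0.281), and at 4 hr that of *Adora2b*, -0.57 (95% CI -1.33 to 0.18, limma adjusted p of 1.00). Single libraries moved both values: that of *P2ry14* lay between -0.84 without S513A 8 hr replicate 2 and -0.41 without S513A 8 hr replicate 1, and that of *Adora2b* between -0.88 without WT 0 hr replicate 1 and -0.26 without WT 0 hr replicate 2, with -0.34 without S513A 0 hr replicate 2. Over the 11 alternatives other than leaving out 1 library, the *P2ry14* value lay between -0.63 and -0.09. That of *Adora2b* lay between -0.60 and -0.45. Within WT alone, 9, 6 and 3 of the 10 genes passed for 4 against 0 hr, 8 against 0 hr and 8 against 4 hr, where 41.3%, 34.3% and 14.2% of all genes did. Within S513A alone, 7, 6 and 2 passed, against 43.2%, 39.9% and 18.3% of all genes. *Adora2a* rose by 3.24 and 2.96 (log2 fold change at 4 hr in WT and S513A), *Entpd1* changed by -1.87 and -1.99, and *P2ry6* by -1.88 and -2.14, with 2.00e-06 as the largest limma adjusted p of these 6 values.

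Other genes of purine signalling were taken from lists of 60 genes, of which 43 were tested, and of these 10 were higher and 15 lower at 4 hr, and 14 were higher and 13 lower at 8 hr (55.8% and 46.1% of all genes passed). Of the other receptors, *P2ry1*, an ADP receptor, was also lowest at 4 hr, but unlike *P2ry6* it stayed below its 0 hr level at 8 hr. It ranged from 3.78 to 4.10 log2 CPM at 0 hr, 1.44 to 2.21 at 4 hr and 2.60 to 3.01 at 8 hr. Its log2 fold change was -2.18 (4 hr), -1.14 (8 hr) and 1.04 (8 against 4 hr). The other genes of this list that passed were *P2ry10* (1.20 at 8 hr, 3 to 14 reads a library), *P2ry10b* (0.43 and 0.29 at 4 and 8 hr) and *P2ry13* (-0.58 at 8 hr). *P2ry10* and *P2ry10b* are close relatives, and reads may be split between them. *P2rx5* rose (log2 fold change 0.82 after 8 hr), and *Adora3*, an adenosine receptor coupled to Gi, was at -0.86 after 4 hr (limma adjusted p = 0.0658) and at -1.15 after 8 hr (adjusted p = 0.0231), with 4 to 28 reads a library. *Adora1*, *P2rx2*, *P2rx3*, *P2rx6* and *P2ry4* were not among the listed genes.

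Of 8 tested ectoenzymes other than *Entpd1* and *Nt5e*, 2 were higher and 3 lower at 4 hr, and 3 were higher and 2 lower at 8 hr. *Cd38*, which consumes NAD, rose from a median of 4.88 log2 CPM without LPS to 8.39 after 4 hr and 8.43 after 8 hr, with no overlap between treated and untreated libraries, a log2 fold change of 3.53 ± 0.09 (SE) at 4 hr with a limma adjusted p of 1.98e-10. *Enpp4* rose by 2.42 ± 0.17 at 4 hr and 2.54 ± 0.17 at 8 hr, and *Enpp1*, which releases pyrophosphate and AMP from ATP, fell by 1.55 and 2.20 on the log2 scale.

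Of the 10 genes of adenosine uptake and metabolism, 3 were higher and 5 lower at 4 hr, and 3 higher and 3 lower at 8 hr. *Nt5c3*, a cytosolic pyrimidine nucleotidase, was at 2.92 (4 hr) and 2.40 (8 hr) as log2 fold changes, and *Pnp*, purine nucleoside phosphorylase, 2.66 and 2.72; *Pnp* has a near copy, *Pnp2*, and reads may be shared between them. *Ada*, which deaminates adenosine to inosine, fell by 0.94 and 2.01 on the log2 scale, with 5 to 49 reads a library. In the ATP release list, *Gja1* (connexin 43) was at 2 to 6 reads a library at 0 hr and 34 to 83 at 4 hr (log2 fold change 3.76 ± 0.30, SE), and *Ank* and *Slc17a9*, the vesicular nucleotide transporter, were at -1.19 and -1.07 at 4 hr. In the cAMP list, downstream of these adenosine receptors, 3 of 13 were higher and 4 lower at 4 hr, led by the phosphodiesterase *Pde4b* (3.35 ± 0.09 at 4 hr, 2.64 at 8 hr). *Adcy3*, an adenylyl cyclase, was at -1.46 and -1.50, and *Pde4d* at -1.41 and -1.25, and all of these passed at both times. None of the 43 genes passed between S513A and WT at any time point or in the mean of the time points, nor in the test of the difference in response. At an unadjusted p under 0.05 there were 0%, 4.65% and 16.3% of them (0, 2 and 7 genes) without LPS, after 4 hr and after 8 hr, where 7.98%, 7.01% and 12.5% of all genes tested had one. In the mean of the time points it was 16.3% of them (7 genes), where 6.71% of all genes tested had one.

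**Figure D5:**
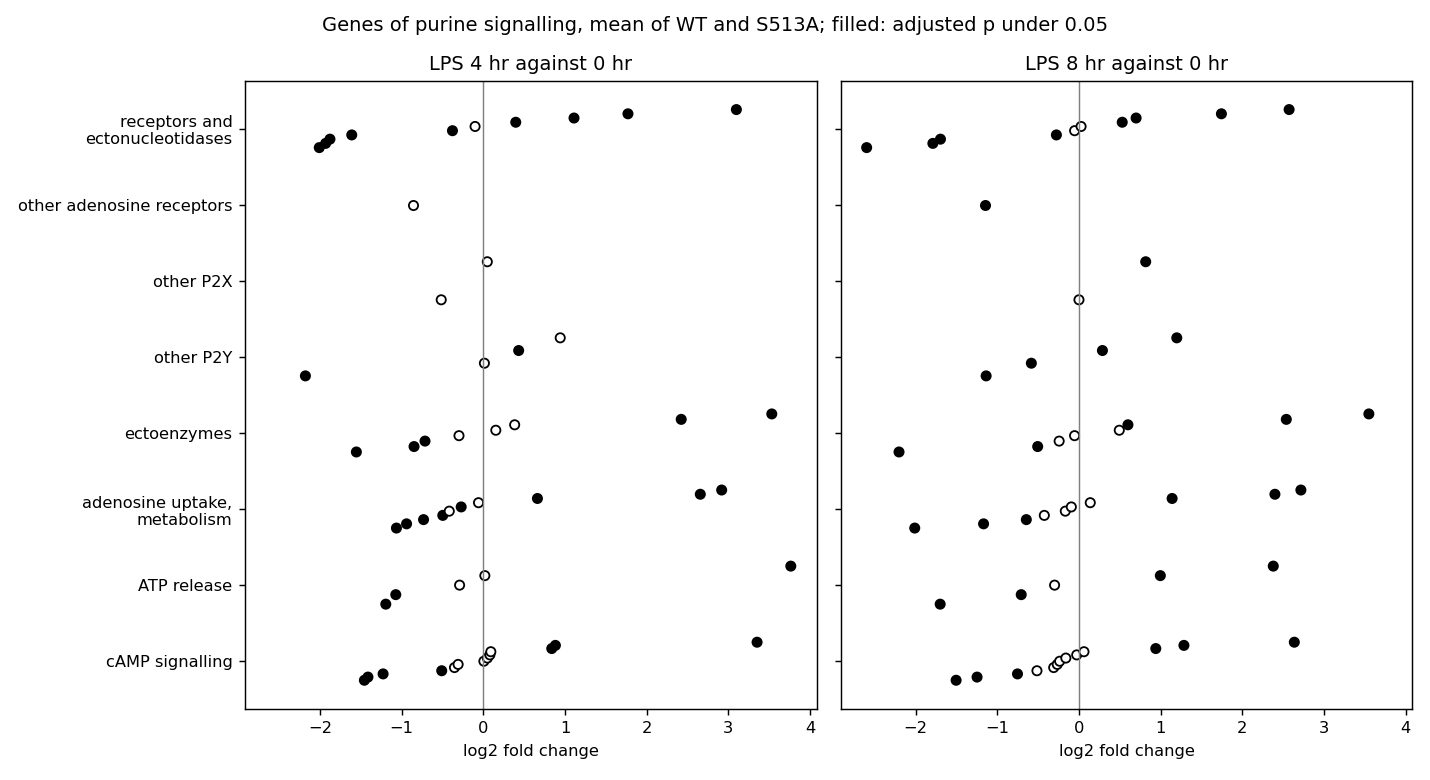
Log2 fold change (horizontal axis) of the 10 genes and of 43 other tested genes of purine signalling, 1 point per gene, by list, for LPS at 4 hr and 8 hr against 0 hr, averaged over genotypes. Filled points have an adjusted p under 0.05 and points are shifted vertically within a list to separate them; each list other than the single adenosine receptor and the P2X list holds filled points on both sides of 0 at 4 hr.

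The genes whose log2 CPM followed that of each gene other than *P2rx4* most closely over the 12 libraries are given as a description, since all points share the time course. They were *Azi2* and *Shisa3* for *Adora2a* (Pearson r = 0.997 for both, n = 12 libraries), *Slc46a3* and *Fam198b* for *Entpd1* (r = 0.998 and 0.997), *Ctu1* and *Ifi208* for *Adora2b* (r = 0.987 and 0.985), and *Ube2d3* and *Nck1* for *P2ry14* (r = 0.984 and 0.983). For *P2ry6* they were *Klhl6* and *Vps8* (r = 0.979 and 0.978), for *P2ry2* *Tbc1d9b* and *Ccdc93* (r = 0.975 and 0.969), and for *P2rx7* *Fmnl1* and *Trerf1* (r = 0.964 for both). For the low counts of *P2ry12* they were *Mmp19* and *Ssbp4* (r = 0.973 and 0.967), and for *Nt5e* *Rab24* and *Galk1* (r = 0.969 and 0.966).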

How the data were processed

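The deposited table holds log2 CPM values per gene and library. Per the labels and the study's methods, the authors mapped paired-end reads to mm10 with HISAT2 without regard to strand and counted them with featureCounts (version 1.6.3); the program that made the deposited log2 values, its gene annotation and its filter are not given in the sources used here. From the values, each is the log2 of reads plus 0.5 over a scaled library size, as CPM, and 100% of the values in every library gave whole reads (tolerance 0.01), which gave the depths and read counts in the text. All 12 libraries were used, grouped by genotype and time from the labels.

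Genes that reached 1 CPM in 2 or more libraries (11885 of 12850) were tested with limma (version 3.58.1) in R (version 4.3.3), with 1 mean per group, 6 residual degrees of freedom, an empirical Bayes trend and Benjamini-Hochberg adjustment over all genes tested, at a threshold of 0.05. The other genes named were the up to 3 genes of each list with the largest absolute log2 fold change among those past the threshold, and the 2 genes with the highest r for each gene (those of *P2rx4* are not reported here); *P2ry10b* was named after its value was seen. The rule for the 10 genes uses symbols alone, but the 10 genes, the lists and the tests were chosen with earlier results of these data known. Count-based tests were not the main test, because the deposited unit is a log2 value; voom on the recovered reads was an alternative. The fit was tested on simulated data. Alternatives covered the filter, a further pseudocount, other scalings, voom weights, no trend, fewer libraries, each genotype, replicate blocks and leaving out each library. Exon lengths came from the GENCODE annotation of GRCm38. Depth limits the precision for *P2ry12*, *Nt5e* and other genes of few reads; the limits stated cover counting error only.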

Additional observations from a re-analysis of the deposited data

Results flagged for a closer look

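For *P2ry6* and *P2rx4*, the 8 hr response to LPS had opposite signs in the 2 genotypes. The *P2ry6* log2 fold change at 8 hr against 0 hr was 0.15 in WT, with both WT libraries at 8 hr above both at 0 hr, and -0.10 in S513A, with both below. For *P2rx4* it was 0.0875 in WT and -0.19 in S513A. No such change passed within a genotype: the limma adjusted p in WT and S513A was 0.430 and 0.603 for *P2ry6*, and 0.586 and 0.207 for *P2rx4*. The test of the difference in response did not pass for either gene, at -0.25 (95% CI -0.70 to 0.19, limma adjusted p = 0.456) for *P2ry6* and -0.28 (95% CI -0.64 to 0.08, limma adjusted p = 0.322) for *P2rx4*, which was -0.18 without S513A 8 hr replicate 1. The first component of the differences between replicates followed the difference between genotypes in the 8 hr response over genes (Pearson r = 0.64). Over the 11 alternatives other than leaving out 1 library, the *P2ry6* difference lay between -0.25 and -0.11. That of *P2rx4* lay between -0.28 and -0.06. Neither gene passed in any of these fits, 1 of which held this component as a term. The values of that fit for these genes are not given here.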

How the results depend on the processing

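The rises of *Adora2a* and *Adora2b* and the falls of *Entpd1* at 4 and 8 hr, and the *P2ry6* fall at 4 hr and rise from 4 to 8 hr, kept their direction and passed under all 25 alternatives. With 1 library left out, the number of the 10 genes that passed was 9 each time at 4 hr, 7 to 8 at 8 hr and 2 to 5 for 8 against 4 hr, where the lowest value came without WT 8 hr replicate 2; none passed between genotypes or in the difference of response (0 to 0). How many of all genes tested passed also moved with the library left out. The ranges at 8 hr and for 8 against 4 hr are therefore not a property of the 10 genes alone. For 8 against 4 hr, 2 genes passed in S513A alone, and with only the libraries of the groups compared 1 gene, *P2ry14*, passed between S513A and WT at 0 hr. Directions that turned belonged to small log2 fold changes: *P2ry6* at 8 hr (-0.12 with quantile normalization, -0.10 in S513A alone), *P2rx4* at 8 hr (0.0875 in WT alone), *Adora2b* for 8 against 4 hr (0.18 in S513A alone, -0.116 to 0.0623 with 1 library left out) and *Nt5e* for 8 against 4 hr (-0.21 in S513A alone, -0.24 to 0.42 with 1 library left out). The cause was not tested.

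The labels do not say whether libraries with the same number share a preparation. The replicate differences of the 3 time points correlated between -0.10 and 0.08 within WT, between 0.09 and 0.42 within S513A, and between -0.41 and 0.14 across genotypes; as not every correlation was over 0.1, the numbers were not used to pair the libraries. With the replicate block, 9, 7 and 3 of the 10 genes passed for 4 against 0, 8 against 0 and 8 against 4 hr. Of the 11885 genes tested, 6462, 5259 and 2766 did. None of the 10 passed between genotypes, where 2, 1 and 3 of all genes did at 0, 4 and 8 hr. *P2rx7* at 8 hr (limma adjusted p = 0.0596) and *Entpd1* for 8 against 4 hr (limma adjusted p = 0.0646) no longer passed. Blocks by genotype and number gave 9, 8 and 3 of the 10 genes, and 6681, 5510 and 3035 of all genes tested. The first replicate component as a term, chosen after the data were seen, gave 6 genes for 8 against 4 hr, where 43.0% of all genes passed in place of 25.6%. Depth limits *P2ry12* and *Nt5e* above all.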
